A study of Caenorhabditis elegans with 6 samples.

Results

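The 9 genes described here are 4 tyrosinase genes (*tyr-1*, *tyr-2*, *tyr-3* and *tyr-4*) and 5 genes of the core apoptosis pathway (*cep-1*, *egl-1*, *ced-9*, *ced-4* and *ced-3*) of *C. elegans*. They were chosen by gene symbol, and all 9 were found among the 46778 gene identifiers that each library lists. RNA of whole young adult animals grown at 20 °C was sequenced in 3 libraries from *vhl-1* mutants and 3 libraries from wild type animals. The mutants carry *vhl-1(ok161)*, a null allele of the worm counterpart of the human *VHL* tumor suppressor gene, in every cell, and the wild type is the N2 strain. The sources name 1 strain for each genotype and do not say whether replicates came from separate cultures, so the p-values measure the spread between these libraries.

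Tyrosinases are copper enzymes that oxidize tyrosine and related phenols, the entry step of melanin synthesis in many animals. In *C. elegans*, HIF-1, the hypoxia-inducible factor that VHL-1 marks for degradation, is known to act through TYR-2. TYR-2 is a secreted protein of the ASJ sensory neurons that protects germ cells from DNA damage-induced apoptosis. That apoptosis runs through a short pathway. CEP-1, the worm p53, induces the BH3-only protein EGL-1, which binds the Bcl-2 family protein CED-9 on mitochondria. CED-9 then releases CED-4, the worm Apaf-1, and CED-4 activates the caspase CED-3.

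The libraries held between 52462303 and 82910026 reads on genes, so that 1 read was worth 0.0119 to 0.0201 CPM (read counts scaled to a common library size, with TMM factors from edgeR). *vhl-1* itself was nearly absent from the mutants, with 7, 3 and 1 reads in *vhl-1* libraries against 501, 442 and 373 reads in wild type libraries. Markers of neurons, germ line, intestine and body wall muscle were present in all 6 libraries. The libraries of each genotype differed widely in oocyte and eggshell markers. The summed level of these 14 genes, none of them at 0 reads, ran from 601 to 2643 CPM in *vhl-1* libraries and from 939 to 3057 CPM in wild type libraries. The extremes were replicate 2 of the mutants and replicate 1 of the wild type. The 10 hypodermis and larval molt markers, none of them at 0 reads, had summed levels of 4492 to 4862 CPM in *vhl-1* libraries and 3274 to 5596 CPM in wild type libraries, and the lowest sum was that of replicate 1 of the wild type. Of this list, 0 of 10 passed the threshold in edgeR (1.25% of all genes tested) and DESeq2 (3.40%) or had an unadjusted p under 0.05 (9.38%). Its median log2 fold change was 0.33. Its members did not move together, since the cuticle collagen gene *dpy-7* was highest in replicate 2 of the mutants (248 CPM) and lowest in replicate 1 of the wild type (47.8 CPM), and the adult collagen gene *col-19* was lowest in that mutant library (31.4 CPM) and highest in that wild type library (1201 CPM). *dpy-7* and *col-19* are named here after their values were seen. These 2 libraries stand apart, and the results below are also given without them where that matters.

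None of the 9 genes passed the threshold of an adjusted p-value under 0.05 between *vhl-1* mutants and wild type animals (edgeR quasi-likelihood test, Benjamini-Hochberg adjustment over 16596 genes). Over all genes tested, 207 passed (1.25%), and 145 of these had higher levels in the mutants (0.874%). DESeq2 and limma-voom also called 0 of the 9, beside 3.40% of all genes for DESeq2 and 1.11% for limma-voom. With the replicate number as a block, edgeR called 0 of the 9 (2.13% of all genes), and DESeq2 called *tyr-1* and *tyr-2* (5.14% of all genes). 1 of the 9 genes, *tyr-2*, had an unadjusted p-value under 0.05, as did 9.38% of all genes. The median log2 fold change was 0.75 over the 4 tyrosinase genes, -0.04 over the 5 apoptosis genes and 0.0059 over all genes tested. In these whole-animal libraries, fewer cells of a type and less RNA per cell cannot be told apart.

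**Figure D1:**
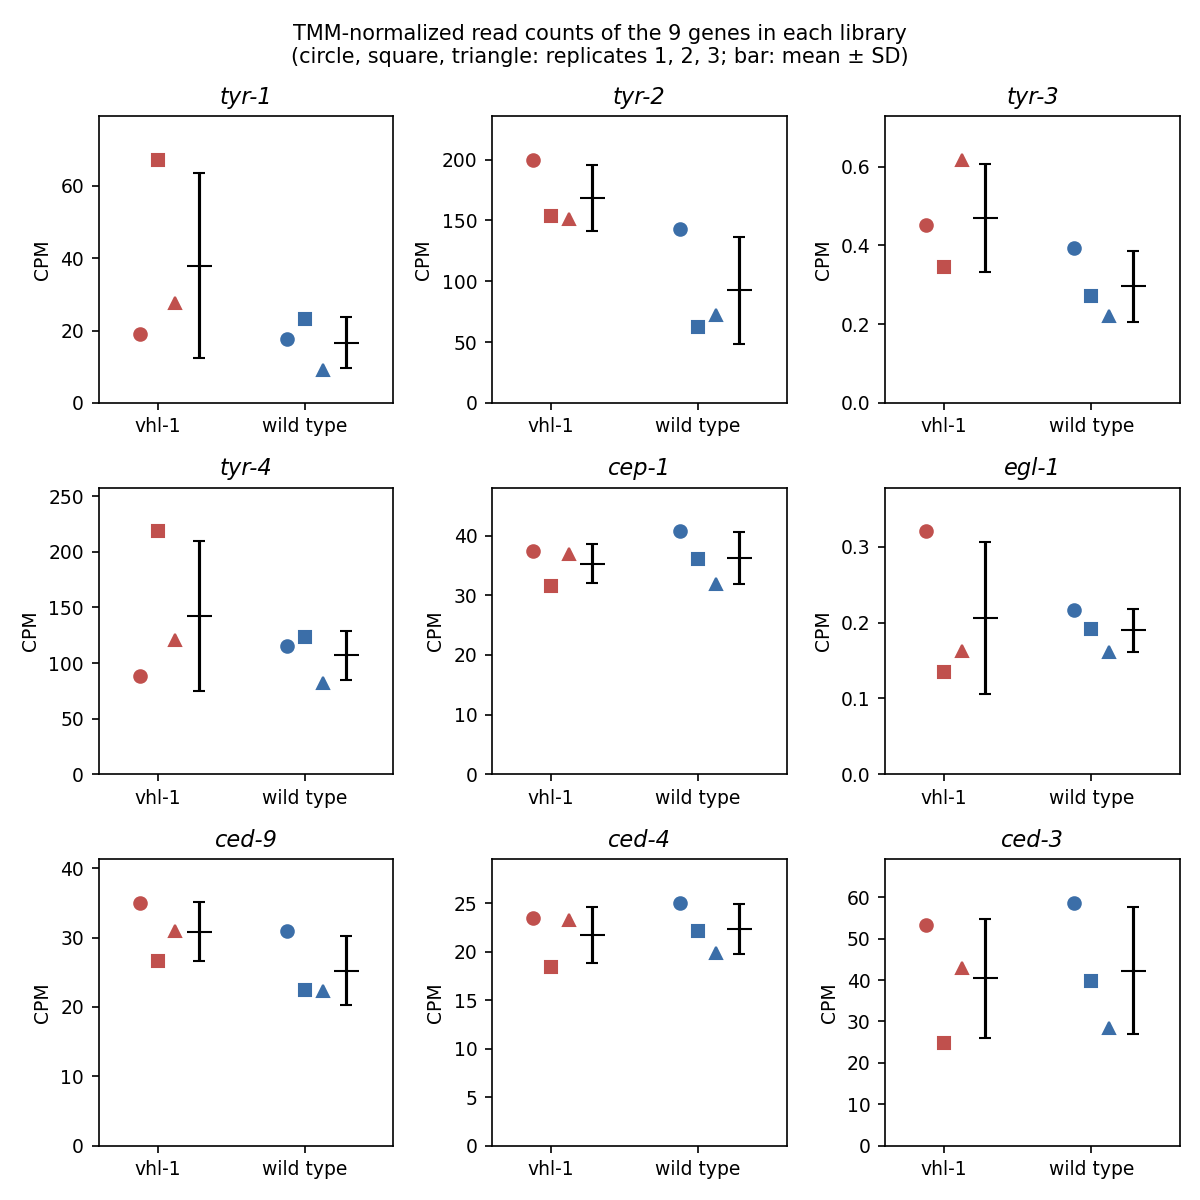
TMM-normalized read counts (CPM, linear axes from 0) of the 9 genes, with *vhl-1* mutants on the left and wild type animals on the right of each panel. Circles, squares and triangles are replicates 1, 2 and 3, and bars give the mean ± SD of 3 libraries; the genotypes are separate for *tyr-2* only, with 151 CPM as the lowest mutant library and 143 CPM as the highest wild type library.

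Among the tyrosinases, *tyr-2* was the gene nearest to a difference. *tyr-2* (WBGene00010661) lies on the plus strand of chromosome III of WBcel235 from 13744222 to 13747287 and has 8 exons that encode 681 amino acids. It had 200, 154 and 151 CPM in *vhl-1* libraries (replicates 1 to 3), against 143, 62.4 and 72.1 CPM in wild type libraries. All 3 mutant libraries were above all 3 wild type libraries, but replicate 1 of the wild type came close to the lowest mutant library. A separation of the genotypes in this direction was found for 6.97% of all genes tested, and in either direction for 14.4%. The means were 168 ± 27.1 CPM in *vhl-1* mutants and 92.4 ± 43.8 CPM in wild type animals (SD, n = 3 each). The log2 fold change was 0.87 (SE 0.32, unadjusted 95% interval 0.10 to 1.63), or 1.82-fold, and did not pass the threshold (adjusted p = 0.43 in edgeR).

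The call for *tyr-2* depended on the wild type libraries used and on the model. With all 6 libraries and the replicate number as a block, the adjusted p was 0.00017 in DESeq2 (log2 fold change 0.94) and 0.059 in edgeR (log2 fold change 0.95). Without replicate 1 of the wild type, which held the highest wild type value of *tyr-2*, the log2 fold change was 1.32 and passed the threshold (adjusted p = 0.035 in edgeR), in a fit that called 0.967% of all genes. Without this library and replicate 2 of the mutants it was 1.38 (adjusted p = 0.017 in edgeR), in a fit that called 2.34% of all genes. With any other library left out it lay between 0.64 and 0.94 and did not pass. Replicate 1 of the wild type also had the highest oocyte marker level of the 6 libraries, and the relation of *tyr-2* to these markers did not pass the threshold (Pearson r = 0.30, exact permutation p = 0.57, Spearman's rho = 0.14, exact permutation p = 0.80, n = 6). Without the 2 libraries farthest from the median marker level r was 0.80, a value from few libraries that was not tested. With the oocyte marker level as a covariate, in a fit that called 3.09% of all genes, *tyr-2* had a log2 fold change of 1.01 (adjusted p = 0.14 in edgeR).

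Markers of the ASJ neurons, the known source of TYR-2, had few reads in these libraries. *trx-1*, a thioredoxin gene specific to ASJ, had 9, 7 and 13 reads in *vhl-1* libraries and 4, 8 and 4 reads in wild type libraries. The sulfotransferase gene *ssu-1*, also expressed in ASJ, had 59, 73 and 57 reads in *vhl-1* libraries and 48, 77 and 68 reads in wild type libraries. The summed level of 3 ASJ markers (*trx-1*, *ssu-1* and *gpa-9*, none of them at 0 reads) was 1.28 to 1.96 CPM in *vhl-1* mutants and 1.41 to 2.29 CPM in wild type animals, so the ranges overlapped. *trx-1* was too low to be tested, and *ssu-1* and *gpa-9* did not pass the threshold (adjusted p = 0.94 and 0.98 in the edgeR fit). The 10 pan-neuronal markers had summed levels of 489 to 681 CPM in *vhl-1* mutants and 449 to 536 CPM in wild type animals. 0 of 10 passed the threshold in edgeR (1.25% of all genes tested) and DESeq2 (3.40%), and 0 had an unadjusted p under 0.05 (9.38%). The smallest p-values were those of *rgef-1* and *egl-3*. All 10 had a log2 fold change above 0, as did 51.6% of all genes tested, with a median of 0.21. Only the sum of replicate 2 of the mutants (681 CPM) lay above the wild type range, and those of replicates 1 and 3 lay within it. The part of the neuronal markers in the tyrosinase values was not tested. The cells in which the *tyr-2* reads arose were not tested.

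*tyr-1* (WBGene00015332), on the plus strand of chromosome III from 7873781 to 7877194, encodes a second member of the family, with 601 amino acids. It had 19.2, 67.1 and 27.5 CPM in *vhl-1* libraries, against 17.6, 23.3 and 9.11 CPM in wild type libraries. Replicate 2 of the mutants was far above all others, replicate 3 was above every wild type library, and replicate 1 lay within the wild type range. The log2 fold change of 1.19 (SE 0.53, unadjusted 95% interval -0.09 to 2.46, adjusted p = 0.61 in edgeR) rested largely on this library. Without it the value was 0.49 (adjusted p = 0.95 in edgeR), and without replicate 1 of the wild type as well it was 0.52 (adjusted p = 0.53 in edgeR). This library had the lowest oocyte marker level and the highest pan-neuronal sum (681 CPM). Of the hypodermis and larval molt markers, it had the highest level of *dpy-7* but the lowest of *col-19* (31.4 CPM). Its sum of these markers (4492 CPM) was the lowest of the mutants. With the oocyte marker covariate *tyr-1* had a value of 0.84 (adjusted p = 0.53 in edgeR), and the part of the other markers in the result was not tested.

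*tyr-4* (WBGene00016419) is another highly expressed member of the family. It lies on the plus strand of chromosome I from 5898303 to 5902115 and encodes 751 amino acids. It had 88.7, 218 and 121 CPM in *vhl-1* libraries, against 116, 124 and 82.2 CPM in wild type libraries. Replicate 2 of the mutants was again the highest, as for *tyr-1* and with the same marker levels, and the groups overlapped. The log2 fold change was 0.41 (SE 0.34, unadjusted 95% interval -0.40 to 1.22, adjusted p = 0.90 in edgeR) and became -0.03 without this library and 0.03 without replicate 1 of the wild type as well.

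*tyr-3* (WBGene00009001), on the minus strand of chromosome I from 7274282 to 7278573, was barely expressed. It had 38, 28 and 38 reads in *vhl-1* libraries, against 31, 17 and 11 reads in wild type libraries. These are 0.451, 0.344 and 0.617 CPM in *vhl-1* libraries and 0.394, 0.272 and 0.221 CPM in wild type libraries. The groups overlapped through replicate 2 of the mutants and replicate 1 of the wild type, and the difference did not pass the threshold (log2 fold change 0.64, SE 0.35, adjusted p = 0.74 in edgeR). Without both of these libraries the log2 fold change was 1.09 (adjusted p = 0.20 in edgeR). They held the lowest mutant and the highest wild type value, so leaving them out raises the fold change.

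Overlap with other genes was short. *tyr-1* shares 19 bases of its exons with *sup-18* on the opposite strand (0.886% of its exon length), and *tyr-4* shares 31 bases with *stam-1*, also on the opposite strand (1.32%). The log2 fold changes of *sup-18* and *stam-1* were -0.03 and -0.11 (adjusted p = 1.00 and 0.93 in the edgeR fit). Strand setting and treatment of multi-mapping reads are not given in the sources used here, so the counts of related tyrosinase genes are uncertain to that extent.

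**Figure D2:**
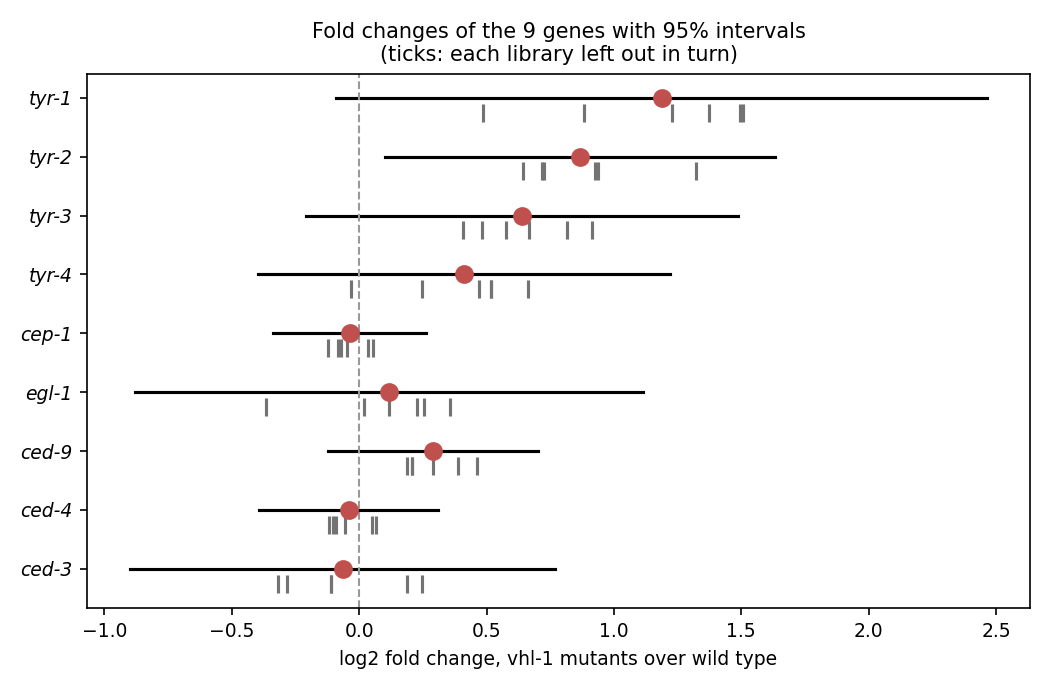
Log2 fold change of *vhl-1* mutants over wild type animals for the 9 genes (circles), with unadjusted 95% intervals from the edgeR fit (lines) and the values with each library left out in turn (ticks). The interval of *tyr-2* (0.10 to 1.63) lies above 0, and the narrowest intervals are those of *cep-1* and *ced-4*, which include 0.

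The 2 other tyrosinase genes of the family did not pass the threshold either. The count was 0 of 2 with edgeR, at an unadjusted p under 0.05 and with DESeq2, beside 1.25%, 9.38% and 3.40% of all genes tested. *tyr-6* had 33.7, 37.7 and 35.3 CPM in *vhl-1* libraries and 26.2, 31.2 and 32.9 CPM in wild type libraries. Its mutant libraries were all above its wild type libraries, as for 6.97% of all genes tested. The log2 fold change of *tyr-6* was 0.24 (SE 0.12, adjusted p = 0.64 in edgeR). *tyr-5* was weakly expressed, with 50, 40 and 42 reads in *vhl-1* libraries and 61, 45 and 34 reads in wild type libraries. These are 0.492 to 0.682 CPM in *vhl-1* libraries and 0.682 to 0.776 CPM in wild type libraries, which meet at the third decimal. Its log2 fold change was -0.31 (SE 0.24, adjusted p = 0.88 in edgeR), below 0, unlike the values of the other 5 tyrosinase genes.

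Genes that supply or use tyrosine were examined beside the tyrosinases. Of 16 genes of tyrosine and catecholamine metabolism, 0 passed the threshold with edgeR, 4 had an unadjusted p under 0.05 and 1 passed with DESeq2, beside 1.25%, 9.38% and 3.40% of all genes tested. Their median log2 fold change was 0.05, with 8 values above 0 and 8 below. The genotypes did not overlap for 4 of the 16 genes (14.4% of all genes tested). *hgo-1*, the homogentisate oxidase of tyrosine breakdown, was the nearest to the threshold. It had 152, 176 and 168 CPM in *vhl-1* libraries and 92.9, 114 and 122 CPM in wild type libraries, which did not overlap. Its log2 fold change was 0.59 (SE 0.12, adjusted p = 0.10 in edgeR), and it passed with DESeq2 (adjusted p = 0.013). *gst-42*, the next enzyme of the same route, had 30.7, 34.7 and 33.8 CPM in *vhl-1* libraries and 37.01, 48.0 and 64.1 CPM in wild type libraries. Its value was -0.59 on the log2 scale (SE 0.20, adjusted p = 0.36 in edgeR), so that adjoining enzymes of this route had values of opposite sign.

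In the apoptosis pathway, the p53 gene *cep-1* differed little between genotypes. *cep-1* (WBGene00000467) lies on the plus strand of chromosome I from 8324286 to 8328859. It had 37.4, 31.6 and 36.9 CPM in *vhl-1* libraries, against 40.7, 36.2 and 31.9 CPM in wild type libraries. The ranges overlapped almost wholly, and all 6 libraries lay within 1.29-fold of each other. The log2 fold change was -0.04 (SE 0.12, adjusted p = 1.00 in edgeR). Its unadjusted 95% interval, -0.34 to 0.26, corresponds to 0.792-fold to 1.20-fold of the wild type level. Without replicate 2 of the mutants and replicate 1 of the wild type, the lowest mutant and the highest wild type library for *cep-1*, the value was 0.13.

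*egl-1*, the BH3-only trigger of the pathway and a transcriptional target of CEP-1, was close to the limit of detection. *egl-1* (WBGene00001170) lies on the minus strand of chromosome V from 14431308 to 14432359 and encodes 106 amino acids. It had 27, 11 and 10 reads in *vhl-1* libraries, against 17, 12 and 8 reads in wild type libraries. Replicate 1 was the highest of both genotypes, and the other libraries overlapped. The log2 fold change of 0.12 (SE 0.42, adjusted p = 1.00 in edgeR) had an unadjusted 95% interval from -0.88 to 1.11, which reaches up to 2.16-fold of the wild type level. Without replicate 1 of the mutants the value was -0.37, and without replicate 2 of the mutants and replicate 1 of the wild type it was 0.47. The libraries left out for the latter value held the lowest mutant and the highest wild type CPM of *egl-1*. *ced-13*, the other BH3-only gene that CEP-1 is known to induce, had 1 read in replicate 1 of the mutants and 1 read in replicate 2 of the wild type, and 0 reads in the other 4 libraries.

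*ced-9*, the Bcl-2 family gene that protects cells, was the apoptosis gene with the largest fold change. *ced-9* (WBGene00000423) lies on the plus strand of chromosome III from 10335172 to 10337522 and encodes 280 amino acids. It had 2952, 2166 and 1908 reads in *vhl-1* libraries, against 2431, 1405 and 1110 reads in wild type libraries. Per length of exon these are 27.2, 20.7 and 24.1 RPKM (CPM per kilobase of exon) in *vhl-1* libraries and 24.1, 17.5 and 17.3 RPKM in wild type libraries. The mean level was 30.9 ± 4.19 CPM in *vhl-1* mutants and 25.23 ± 4.93 CPM in wild type animals (SD, n = 3 each). Replicate 1 of the wild type lay within the mutant range, and the other wild type libraries lay below it. Its value on the log2 scale was 0.29 (SE 0.17, unadjusted 95% interval -0.12 to 0.70, adjusted p = 0.78 in edgeR). It was 0.56 without replicate 1 of the wild type and replicate 2 of the mutants (adjusted p = 0.062 in edgeR) and 0.35 with the oocyte marker covariate (adjusted p = 0.12 in edgeR). The libraries left out held the highest wild type and the lowest mutant value of *ced-9*, so leaving them out raises the fold change.

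The gene just upstream of *ced-9* is *mev-1*, a subunit of mitochondrial complex II, which ends 3 bases before *ced-9* on the same strand and is known to be transcribed in 1 operon with it. *mev-1* was looked up after the values of *ced-9* had been seen. It had 142, 159 and 145 CPM in *vhl-1* libraries, against 108.1, 110 and 131 CPM in wild type libraries. These did not overlap, as for 6.97% of all genes tested in this direction. Its log2 fold change of 0.35 (SE 0.10, adjusted p = 0.27 in edgeR) did not pass the threshold. It had the same sign as that of *ced-9*, as did 51.6% of all genes tested.

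*ced-4* and *ced-3* complete the pathway. *ced-4* (WBGene00000418), the adaptor that activates the caspase, lies on the plus strand of chromosome III from 4852325 to 4855171. It had 23.5, 18.4 and 23.2 CPM in *vhl-1* libraries, against 25.04, 22.1 and 19.9 CPM in wild type libraries. The groups overlapped, and the difference on the log2 scale was -0.04 (SE 0.15, unadjusted 95% interval -0.39 to 0.31, adjusted p = 1.00 in edgeR).

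*ced-3* (WBGene00000417), the caspase that executes cell death, lies on the minus strand of chromosome IV from 13198261 to 13204137. It had 53.4, 24.8 and 42.9 CPM in *vhl-1* libraries, against 58.6, 39.7 and 28.3 CPM in wild type libraries. The spread within a genotype was 2.15-fold in *vhl-1* mutants and 2.07-fold in wild type animals, far wider than the difference of the means. On the log2 scale the difference was -0.06 (SE 0.35, unadjusted 95% interval -0.90 to 0.77, adjusted p = 1.00 in edgeR). Without replicate 2 of the mutants and replicate 1 of the wild type it was 0.50 (adjusted p = 0.22 in edgeR), so the sign depended on these libraries. They held the lowest mutant and the highest wild type value, so leaving them out raises the fold change.

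The order of the libraries was the same for *cep-1*, *ced-4* and *ced-3*. From the lowest to the highest level it ran from replicate 2 of the mutants over replicate 3 and replicate 2 of the wild type, replicate 3 and replicate 1 of the mutants to replicate 1 of the wild type. This is also the order of the mean log2 level of the 14 oocyte and eggshell markers. The 17 germ line markers and the 12 sperm markers gave the same order, so it was not particular to the oocyte list. Spearman's rho with the oocyte marker level was 1.00 for each of the 3 genes (exact permutation p = 0.0028, adjusted over the 9 genes p = 0.0083, n = 6). This relation was not planned, and the adjustment does not cover the choice of the marker list. Pearson's r was 0.95 for *cep-1* (exact permutation p = 0.0056, adjusted p = 0.017), 0.98 for *ced-4* and 0.99 for *ced-3* (exact permutation p = 0.0014 and adjusted p = 0.0063 for both). Without the 2 libraries farthest from the median marker level, r was 0.91 for *cep-1*, 0.92 for *ced-4* and 0.99 for *ced-3*. These values come from few libraries and were not tested. Each genotype has only 3 libraries, too few for a value within it, but the order held within both. The same order of the 6 libraries was found for 4.25% of all genes tested. An r of at least 0.95 with the oocyte marker level was found for 6.69% of them. These values share libraries and scaling, and whether the number of germ cells differed between libraries was not tested.

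Of the other members, *egl-1* had r = 0.77 with the oocyte markers (exact permutation p = 0.067, adjusted p = 0.15) and rho = 0.89 (exact permutation p = 0.033, adjusted p = 0.075). *ced-9* had r = 0.62 (exact permutation p = 0.19, adjusted p = 0.35) and rho = 0.66. The tyrosinases gave r between -0.54 for *tyr-4* and 0.44 for *tyr-3*, with exact permutation p of at least 0.26 for each of the 4 genes (n = 6). Without the 2 libraries farthest from the median marker level, r was 0.65 for *tyr-1*, 0.80 for *tyr-2*, 0.65 for *tyr-3* and 0.17 for *tyr-4*. The negative sign for *tyr-1* and *tyr-4* thus rested on the libraries left out. These values of r come from only 4 libraries and were not tested.

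**Figure D3:**
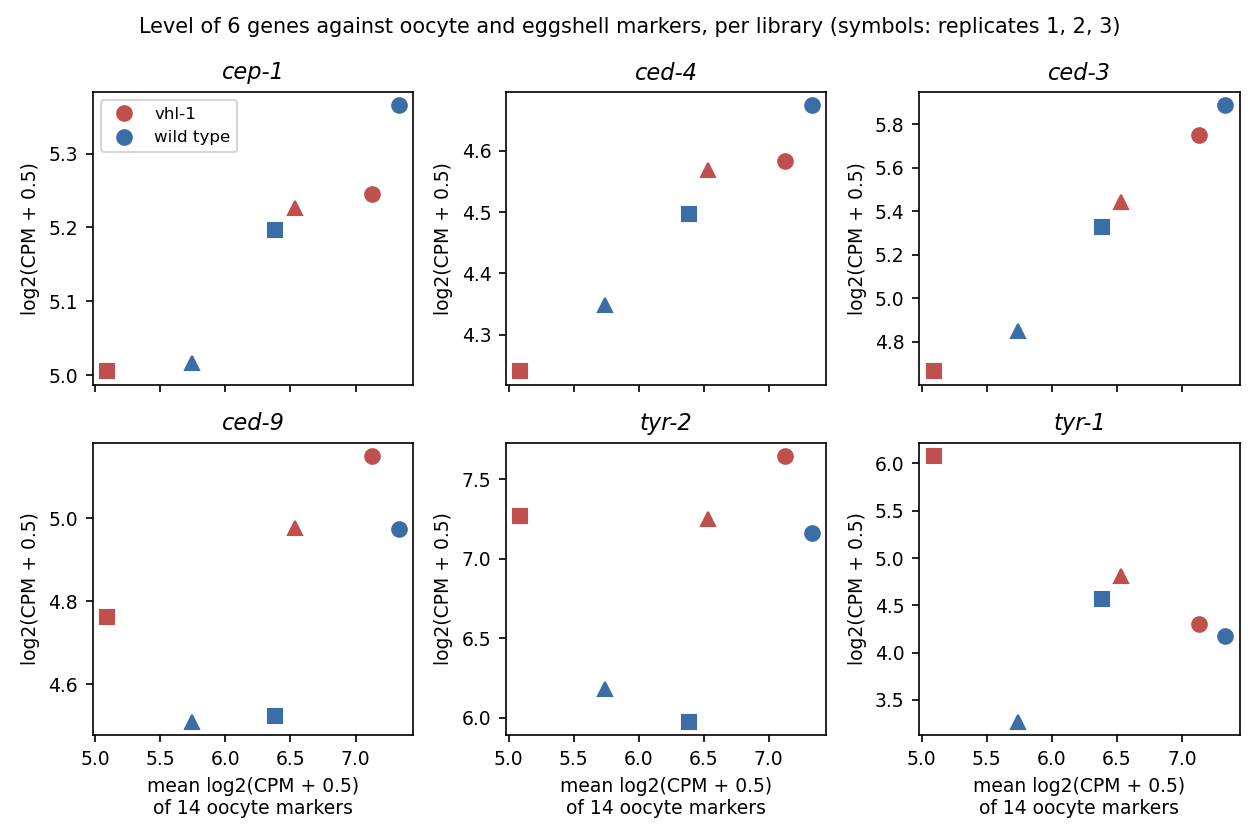
Level of 6 of the 9 genes, as log2(CPM + 0.5), against the mean level of 14 oocyte and eggshell markers on the same scale, with 1 point for each library of *vhl-1* mutants (red) and wild type animals (blue). The libraries stand in the same order for *cep-1*, *ced-4* and *ced-3* as for the markers, and in other orders for *ced-9*, *tyr-2* and *tyr-1*.

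Levels of different genes were compared per exon length, as RPKM. In *vhl-1* mutants *tyr-2* was the highest of the 9 genes, with 74.4 ± 11.98 RPKM, followed by *tyr-4* with 60.6 ± 28.7 RPKM (SD, n = 3 each), and their ranges overlapped. In wild type animals *tyr-4* came before *tyr-2*, with 45.5 ± 9.34 and 40.8 ± 19.3 RPKM (SD, n = 3 each), and these overlapped too. *ced-9* followed in both genotypes, with 24.0 ± 3.26 RPKM in *vhl-1* mutants and 19.6 ± 3.84 RPKM in wild type animals, below the whole range of *tyr-2* and *tyr-4*. *ced-3*, *ced-4* and *cep-1* were lower still, with 15.8, 11.2 and 10.8 RPKM in *vhl-1* mutants and 16.5, 11.6 and 11.1 RPKM in wild type animals, and neighbors in this order overlapped. *tyr-1* came between *ced-9* and *ced-3* in *vhl-1* mutants and after *cep-1* in wild type animals. It had 17.7 ± 11.95 RPKM in *vhl-1* mutants and 7.76 ± 3.32 RPKM in wild type animals (SD, n = 3 each). Its range overlapped those of these neighbors in both genotypes. The mutant libraries had 8.94, 31.3 and 12.8 RPKM (replicates 1 to 3), so its mutant mean rested largely on replicate 2. *egl-1* and *tyr-3* were the lowest, with 0.368 and 0.220 RPKM in *vhl-1* mutants, where their ranges overlapped, and 0.339 and 0.138 RPKM in wild type animals, where they did not. In the mean of all libraries, *tyr-2* was above 88.1% of the genes tested, *ced-9* above 70.2%, *egl-1* above 6.57% and *tyr-3* above 2.68%.

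Ratios within a library are free of the scaling between libraries. The RPKM ratio of *ced-9* to *ced-4*, the protector and the adaptor that it binds, was 2.24, 2.18 and 2.00 in *vhl-1* libraries, against 1.86, 1.53 and 1.69 in wild type libraries. All mutant libraries were above all wild type libraries, and no test was made on this ratio. It was the only ratio examined that separated the genotypes, since *tyr-2* to *tyr-4*, *tyr-2* to *tyr-1* and the ratios below overlapped. The share of all gene pairs that separate in this way was not computed. The ratio of *ced-9* to the caspase *ced-3* was 1.30, 2.13 and 1.43 in *vhl-1* libraries, against 1.05, 1.13 and 1.56 in wild type libraries. This ratio overlapped, and its highest value was that of replicate 2 of the mutants, where *ced-3* was lowest. The ratio of *ced-4* to *ced-3* averaged 0.758 ± 0.202 in *vhl-1* mutants and 0.742 ± 0.182 in wild type animals (SD, n = 3 each).

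**Figure D4:**
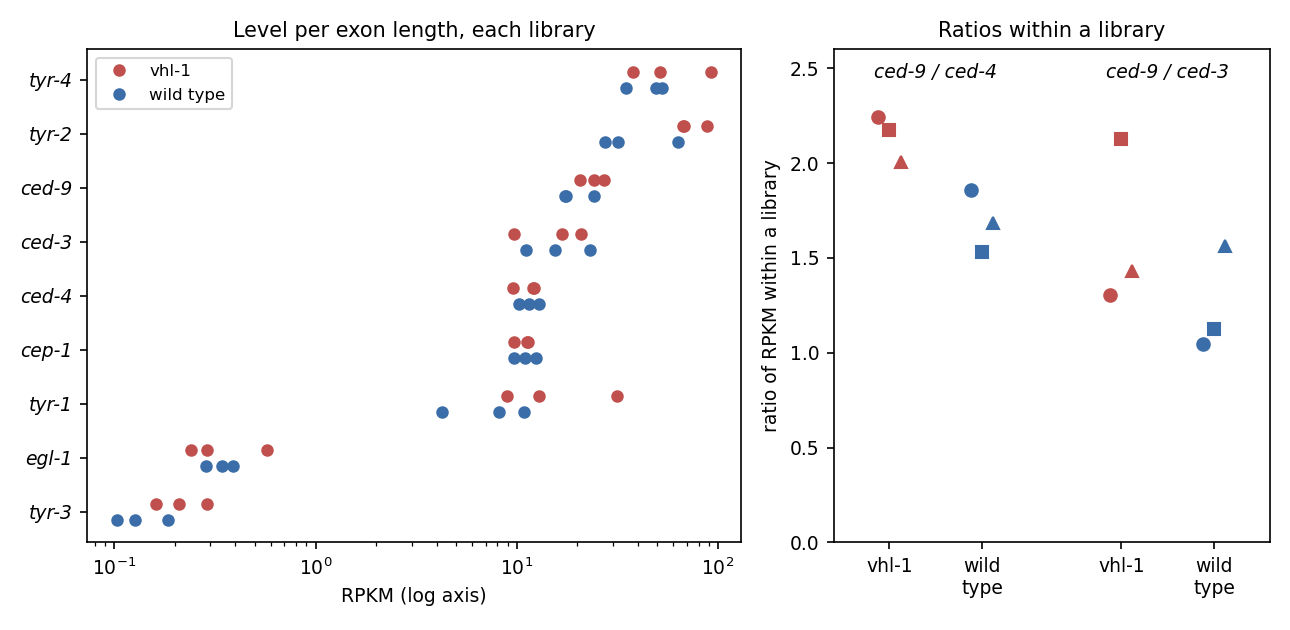
Left, RPKM of the 9 genes in each library on a log axis, *vhl-1* mutants (red) above wild type animals (blue), ordered by the wild type mean. Right, ratios of RPKM within a library, with circles, squares and triangles for replicates 1, 2 and 3. The *ced-9* to *ced-4* ratio is 2.00 or more in *vhl-1* mutants and 1.86 or less in wild type animals, and was not tested.

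Around these 9 genes, 7 lists of related genes held 105 genes, of which 102 could be tested and 0 passed the threshold with edgeR. At an unadjusted p under 0.05 there were 5 genes, DESeq2 called 2 and limma-voom called 0, beside 9.38%, 3.40% and 1.11% of all genes tested. The median log2 fold change over the 102 genes was -0.0079. The groups did not overlap for 10 of them, or 9.80%, beside the 14.4% of all genes. The 3 genes that were too low to be tested were *ced-13*, *ces-1* and *ces-2*.

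The 28 genes of engulfment and corpse clearance lead from the surface signals of a dying cell to its digestion. Of these, 0 passed the threshold with edgeR (1.25% of all genes tested) and DESeq2 (3.40%). An unadjusted p under 0.05 was found for 0 (9.38%), and the genotypes did not overlap for 3 of the 28 (14.4%). Their median log2 fold change was -0.02. *anoh-1* had the smallest p-value, with 0.771, 1.598 and 1.17 CPM in *vhl-1* libraries and 0.649, 0.816 and 0.702 CPM in wild type libraries (log2 fold change 0.71, SE 0.32, adjusted p = 0.61 in edgeR). *ced-7*, an ABC transporter needed for engulfment, had a log2 fold change of -0.14 (SE 0.07, adjusted p = 0.72 in edgeR).

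Of the 10 genes of apoptotic DNA degradation, 0 passed with edgeR, beside 1.25% of all genes tested. 1 had an unadjusted p under 0.05 (9.38% of all genes), and the same gene passed with DESeq2 (3.40% of all genes). This was *nuc-1*, a lysosomal DNase II that digests the DNA of engulfed cells. *nuc-1* had 63.3, 59.4 and 59.5 CPM in *vhl-1* libraries, against 74.8, 93.3 and 107 CPM in wild type libraries, with no overlap (14.4% of all genes tested). Its log2 fold change was -0.60 (SE 0.14, adjusted p = 0.13 in edgeR, DESeq2 adjusted p = 0.026). Without replicate 1 of the wild type, the wild type value nearest to the mutants, it was -0.72 and passed with edgeR too (adjusted p = 0.041). The cell-death nuclease gene *crn-2* had a log2 fold change of -0.12 (adjusted p = 0.95 in edgeR).

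The 31 genes of the DNA damage checkpoint and of the control of CEP-1 had small fold changes. 0 of them passed with edgeR (1.25% of all genes tested) and DESeq2 (3.40%). 0 had an unadjusted p under 0.05 (9.38%), and 0 had genotypes that did not overlap (14.4%). Their log2 fold changes lay between -0.23 and 0.27, with a median of -0.0028. The smallest p-values were those of the kinase gene *sgk-1*, with a log2 fold change of -0.23 (adjusted p = 0.65 in edgeR), and of *ape-1*, the inhibitor of CEP-1, with 0.18 (adjusted p = 0.67 in edgeR).

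A further 4 tested genes were *csp-1*, *csp-2* and *csp-3* of the caspase family and the inhibitor of cell death *icd-1*. Of these, 0 passed with edgeR (1.25% of all genes tested) and DESeq2 (3.40%), and 0 had an unadjusted p under 0.05 (9.38%). The smallest p-values were those of *icd-1*, with a log2 fold change of 0.10 (adjusted p = 0.95 in edgeR), and *csp-3*, with -0.19 (adjusted p = 1.00 in edgeR). Of the 11 tested factors that specify which cells die, 0 passed with edgeR (1.25% of all genes tested) and DESeq2 (3.40%). 0 had an unadjusted p under 0.05 (9.38%), and the median log2 fold change of the 11 was 0.18. *ceh-20* had 0.43 (adjusted p = 0.68 in edgeR) and *ceh-30* 0.38 (adjusted p = 0.79 in edgeR). *ces-2*, a bZIP factor of this list, was singled out after its reads were seen. It had 9, 13 and 10 reads in *vhl-1* libraries and 4, 0 and 0 reads in wild type libraries, and in a fit without a filter its edgeR adjusted p was 0.43.

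The HIF-1 targets gave the scale of the response in the same libraries. Of 12 such genes, listed with their differences in these data known, 11 passed the threshold in edgeR, all of them higher in *vhl-1* mutants, beside the 0.874% of all genes. These were *nhr-57*, *egl-9*, *phy-2*, *rhy-1*, *sqrd-1*, *fmo-2*, *cah-4*, *efk-1*, *ethe-1*, *rips-1* and *F22B5.4*, and *cysl-2* did not pass (adjusted p = 0.051 in edgeR). Their log2 fold changes ran from 0.86 for the kinase gene *efk-1* to 5.02 for *sqrd-1*, the sulfide oxidation enzyme. *tyr-2*, with 0.87, was at the lower end of this range in size, but *efk-1* had a standard error of 0.10 against 0.32 for *tyr-2*. The lower end follows from the choice of the list, and whether *tyr-2* responded to HIF-1 was not tested.

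**Figure D5:**
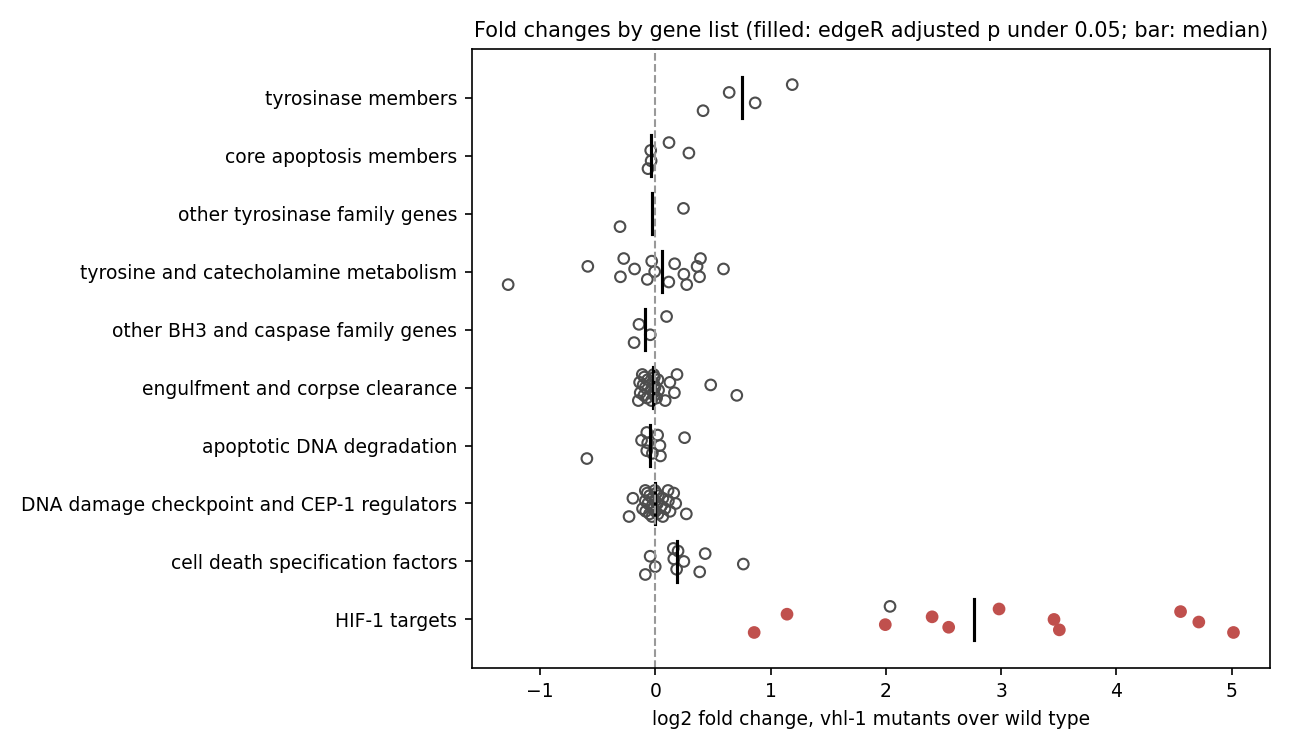
Log2 fold change of *vhl-1* mutants over wild type animals for each tested gene of the 9 members, the 7 related lists and the HIF-1 targets, with a bar at the median of each list and filled points for an edgeR adjusted p under 0.05. Only HIF-1 targets are filled (11 of 12), and the medians of the other lists lie between -0.09 and 0.75.

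The 5 genes whose levels over the 6 libraries were most like those of *tyr-2* were *W02A11.1*, *emr-1*, *fln-1*, *T09B9.1* and *Y50D7A.1*. Their Pearson r of log2 levels with *tyr-2* was 0.98 to 0.99, over 6 libraries and among 13847 genes with a mean of at least 1 CPM. Their log2 fold changes, from 0.11 for *W02A11.1* to 0.59 for *T09B9.1*, were smaller than that of *tyr-2*, and none passed the threshold (adjusted p between 0.72 and 0.90 in edgeR). With so many genes and 6 points, values of r this high are a description only.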

How the data were processed

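RNA of 3 *vhl-1* mutant and 3 wild type libraries was analysed. Per the labels and the methods, the authors used Trim Galore 0.4.3.1 on 50 bp single-end reads, aligned these with STAR 2.6.0b and counted them with featureCounts 1.6.3. The deposited values are raw read counts per gene without normalization, 1 set per library. Genome build, annotation, strand setting and treatment of multi-mapping reads are not given in the sources used here. Each set ends with 1 blank row without values.

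The WBcel235 annotation of Ensembl (release 115) gave symbols, positions and exon lengths, for 46603 of 46778 identifiers. The main test used edgeR 4.0.16 in R 4.3.3 (filterByExpr, TMM, quasi-likelihood test on genotype, Benjamini-Hochberg adjustment over 16596 genes, threshold 0.05). A standard error (SE) is the fold change over the root of its F value. Intervals of 95% are unadjusted. RPKM is TMM-normalized CPM per kilobase of merged exons. The relation to oocyte markers used log2(CPM + 0.5) and all 720 permutations of the 6 libraries, two-sided.

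The members and lists were chosen with earlier results of these data known. All 9 members are named. Of each pathway list and of the HIF-1 targets, genes past the threshold are named or, where there were none, the 2 with the smallest p-value, and the 5 genes most like *tyr-2*. The rule covered the marker lists too, but most of these are given as sums only. 203 of 204 listed genes were found.

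Alternatives were DESeq2 1.42.0, limma-voom (limma 3.58.1), other normalizations, filters and thresholds, each library left out, and a replicate block. The relation to oocyte markers was not planned, and the oocyte covariate and the fit without 2 libraries were chosen after seeing the data. Each tool was tested on simulated counts. All pairs of replicates differed by more than sampling noise (chi-square per gene of at least 43.3).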

Additional observations from a re-analysis of the deposited data

How the results depend on the processing

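Of the 153 log2 fold changes that the alternatives gave for the 9 genes, 135 kept their sign and their side of the threshold, 4 passed the threshold and 14 changed sign. The tyrosinase genes called (0) became 1 without replicate 1 of the wild type and without this library and replicate 2 of the mutants (*tyr-2* in both), and 2 with DESeq2 and a replicate block. With each library left out they were 0 to 1. No alternative run called an apoptosis gene of the 9. The related genes called (0) became 2 with DESeq2, 2 without both libraries, 2 with the oocyte covariate and 0 to 1 with a library left out. All genes called (207) became 650 with DESeq2, 385 without both libraries, 513 with the covariate, 65 at a threshold of 0.01, 374 at 0.1 and 49 to 161 with a library left out. The cause of these differences was not tested.

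Whether replicate numbers pair the libraries stayed unsettled, since libraries with the same number had correlations of 0.55, 0.44 and -0.016 of their deviations from the genotype means. With a replicate block, edgeR called 354 genes in all, 1 related gene (*hgo-1*) and 0 members, and DESeq2 with the block called 909, 3 related genes and, of the members, *tyr-2* (0.94, adjusted p = 0.00017) and *tyr-1* (1.08, adjusted p = 0.0091). *tyr-2* had 0.95 with edgeR and the block (adjusted p = 0.059).

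The values that switched sign were these. Without replicate 2 of the mutants *tyr-4* was -0.032 (0.41 with all libraries), *cep-1* 0.036, *ced-4* 0.065 and *ced-3* 0.19. Without replicate 1 of the wild type *cep-1* was 0.054, *ced-4* 0.049 and *ced-3* 0.25. Without both they were 0.13, 0.16 and 0.50, and with the covariate 0.0028, 0.0023 and 0.066. For *cep-1*, *ced-4* and *ced-3* these libraries held the lowest mutant and the highest wild type value. *egl-1* was -0.37 without replicate 1 of the mutants. With each library left out, the ranges were -0.032 to 0.66 for *tyr-4*, -0.12 to 0.054 for *cep-1*, -0.37 to 0.36 for *egl-1*, -0.12 to 0.065 for *ced-4* and -0.32 to 0.25 for *ced-3*. Without both libraries *egl-1* was 0.47. The log2 difference of the *ced-9* to *ced-4* ratio (0.34) stayed between 0.27 and 0.41, and that to *ced-3* (0.37) between 0.16 and 0.54, with a library left out. *egl-1*, *tyr-3* and *tyr-5* had 8 to 61 reads in a library, and the share of counting error in their intervals was not tested.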
